A study of Mus musculus with 6 samples.

Results

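The miRNAs described here are miR-143 and miR-145, which are made from a shared transcript in smooth muscle and other mesenchymal cells, and miR-199a, miR-199b and miR-214, which mark mesenchyme. All wells whose assay name, without the species prefix, the assay number and the arm, reads miR-143, miR-145, miR-199a, miR-199b or miR-214 were taken, and minor strands (names ending in #) were left out. This gave 8 of 750 miRNA wells, 5 first-card wells (mmu-miR-145, mmu-miR-143, mmu-miR-199a-3p, mmu-miR-199a-5p and mmu-miR-214) and 3 second-card wells (hsa-miR-143, hsa-miR-214 and miR-199b). The 2 minor strand wells of the same hairpins, miR-145# and hsa-miR-214#, are given beside them. All 8 members passed the filter on detection.

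RT-PCR was used to measure mature miRNAs in right lungs of mouse pups at day 7 of life, after the pulmonary artery had been flushed with buffer. The hyperoxia group (3 samples) breathed 95% oxygen for 7 days, beginning before 12 hours of age, and the control group (3 samples) breathed room air. Dams of both groups were exchanged daily between the atmospheres. The labels name neither the strain nor a genotype, and they do not say whether a sample is 1 animal, so p-values here rest on a spread among samples that may be technical. Each sample was read on 2 cards, taken here to be 1 for each reverse transcription primer pool. In whole lung, fewer cells of a type and less RNA per cell cannot be told apart.

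miR-143 and miR-145 are induced by serum response factor with its cofactor myocardin, and they help hold vascular and airway smooth muscle in the contractile state by repressing factors that drive dedifferentiation, such as Klf4 and Klf5. miR-199a and miR-214 lie on the noncoding transcript Dnm3os, which is driven by Twist1 in embryonic mesenchyme, and both are studied in fibroblasts and fibrosis. The neonatal lung builds its septa with myofibroblasts and smooth muscle, and oxygen injury at this stage is a model of bronchopulmonary dysplasia, the lung disease of oxygen-treated preterm infants.

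RefSeq sequences (mouse build GRCm38.p6) matched 3 of the 5 miRNA names, and they are shown because they decide which assays can be told apart. In the mature sequences the capitals mark the seed, bases 2 to 8, through which a miRNA pairs with its targets.
mmu-miR-199a-3p: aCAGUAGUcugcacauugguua
mmu-miR-199b-3p: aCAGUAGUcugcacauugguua
mmu-miR-199a-5p: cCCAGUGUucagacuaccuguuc
mmu-miR-214-3p: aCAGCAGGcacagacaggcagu
mmu-miR-214-5p: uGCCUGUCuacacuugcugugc
The 3p products of miR-199a and miR-199b are identical over all 22 bases, so an assay for this arm reads both genes. The 5p arm of miR-199a differs from the matching stretch of the Mir199b hairpin by the single substitution C10U, counted from the 5′ end with the miR-199a base first. The seeds of miR-199a-3p and miR-214-3p share 5 of 7 bases and differ by U5C and U8G, so the sequences shown have 4 distinct seeds.

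Both hairpins of the chromosome 1 cluster are printed to show where the arms lie, with the mature arms in capitals.
Mir199a-2: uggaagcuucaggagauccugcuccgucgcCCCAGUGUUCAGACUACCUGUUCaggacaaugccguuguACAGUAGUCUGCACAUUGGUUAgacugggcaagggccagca
Mir214: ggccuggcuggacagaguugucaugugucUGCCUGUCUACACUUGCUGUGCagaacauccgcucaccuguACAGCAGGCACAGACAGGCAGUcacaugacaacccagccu
Mir199a-2 is at chr1:162217814-162217923 and Mir214 at chr1:162223368-162223477, both on the plus strand and 5444 bases apart. Both lie within the annotated spans of Dnm3 and Dnm3os. A further copy, Mir199a-1, is at chr9:21496495-21496564 on the minus strand within Dnm2, and Mir199b is at chr2:32318460-32318569 on the plus strand within Dnm1. Since Mir199a-1 and Mir199a-2 give the same mature products and Mir199b the same 3p product, a value of miR-199a-3p sums up to 3 genes, whereas miR-214 has 1.

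The threshold cycle (Ct) counts the PCR cycles needed before fluorescence passes a set level, and it falls as the amount of RNA rises. A Ct under 35 was read in 307 to 319 miRNA wells per sample for the first card, and in 268 to 293 for the second. Room air replicate 1 and hyperoxia replicate 2 held the identical second-card Ct in 308 of the 309 wells that amplified in both, against 0 of 312 on the first card, so these second-card values were left out of both. First-card members therefore rest on 3 samples per group, except miR-199a-5p with 2 in hyperoxia, and second-card members on 2. On the second card all 105 names that carry an assay number match the number listed 3 wells later, so the identity of single second-card wells is uncertain. Relative abundance is the mean Ct of the miRNAs detected in every sample used on the card minus the Ct of the assay, on a log2 scale. That mean Ct was itself later in hyperoxia, 23.1 ± 0.45 (SD, n = 3) against 22.4 ± 0.30 (SD, n = 3), by 0.76 cycles (exact permutation p = 0.1, two-sided, the smallest that 3 against 3 allows). The small RNA controls of the first card did not shift alike. U6 was later by 0.43 cycles in plate row A and by 1.06 in row B, and Y1 by 0.41. For snoRNA135, snoRNA202 and U87 the differences were -0.078, 0.038 and -0.13 cycles. Which of these follows the input was not tested. The endothelial miR-126-3p, at Ct 11.3 to 13.6, and the epithelial miR-200c, at Ct 16.2 to 17.6, both miRNAs of cell types that lung holds, were detected in all 6 samples.

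miR-145 was lower in hyperoxia in all 3 samples and miR-143 lay on the same side, while miR-199a-3p, miR-199a-5p and miR-214 had higher means in hyperoxia with overlapping groups. No member passed the test over all assays. Of the 551 miRNA assays tested on both cards by limma with Benjamini-Hochberg adjustment, 0 (0%) had an adjusted p under 0.05, and among the 8 members the count was also 0. An unadjusted p under 0.05 was reached by 30 assays in the lower direction (5.44%) and 20 in the higher (3.63%), among the members by miR-145 alone, in the lower direction. Of the 8 members 4 were negative and 4 positive with a median log2 fold change of 0.11, against 319 negative of 551 and a median of -0.12 over all assays. These 8 are not independent, because miR-143 and miR-214 are each read on both cards. miR-199b, counted as negative, stood at -0.0093.

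For miR-145, the smooth muscle miRNA with the lowest Ct of the members, the room air samples had Ct values of 14.11, 14.31 and 14.51, and the hyperoxia samples 15.88, 15.40 and 15.96. Relative abundance was 7.92, 8.17 and 8.09 with room air, compared with 7.59, 7.21 and 7.34 with hyperoxia. Every hyperoxia sample was below every room air sample, both in relative abundance, where hyperoxia replicate 1 was nearest to the controls, and by its later raw Ct, where replicate 2 was. The log2 fold change of hyperoxia over room air was -0.68 ± 0.23 (SE, n = 3 and 3), which is 1.60-fold lower, with a 95% interval from -1.26 to -0.096 and a limma adjusted p of 0.477. Groups that did not overlap on the lower side were found for 49 of the 302 first-card assays tested (16.2%), and among the 5 first-card members for 1. On the higher side they were found for 19 assays (6.29%) and for 0 of these members. Of the 302 first-card assays, 51 had a more negative log2 fold change than miR-145 and 21 a smaller unadjusted p. Its unadjusted limma p was 0.0294. The value depended on the reference: it was -1.24 with the small RNA controls, -1.44 without normalization and -0.40 with quantile normalization.

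miR-143, the cotranscribed partner of miR-145, had room air Ct values of 16.89, 16.92 and 17.09, and hyperoxia values of 18.35, 17.44 and 18.25. All 3 hyperoxia samples crossed the threshold later, by 1.05 cycles on average, as did miR-145 by 1.44 cycles. A later raw Ct without overlap was common: it held for 136 of 302 first-card assays (45%), and the mean of the card was later too. An earlier raw Ct without overlap was found for 4 assays (1.32%), none of them a member. In relative abundance the room air samples stood at 5.14, 5.57 and 5.51, the hyperoxia samples at 5.12, 5.17 and 5.06. The groups overlapped there only through room air replicate 1, which lay below hyperoxia replicate 2. The log2 fold change was -0.29 ± 0.24 (SE, n = 3 and 3; 95% interval -0.88 to 0.30; limma adjusted p = 0.738). It was -0.85 with the small RNA controls as reference and -1.05 without normalization.

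**Figure D1:**
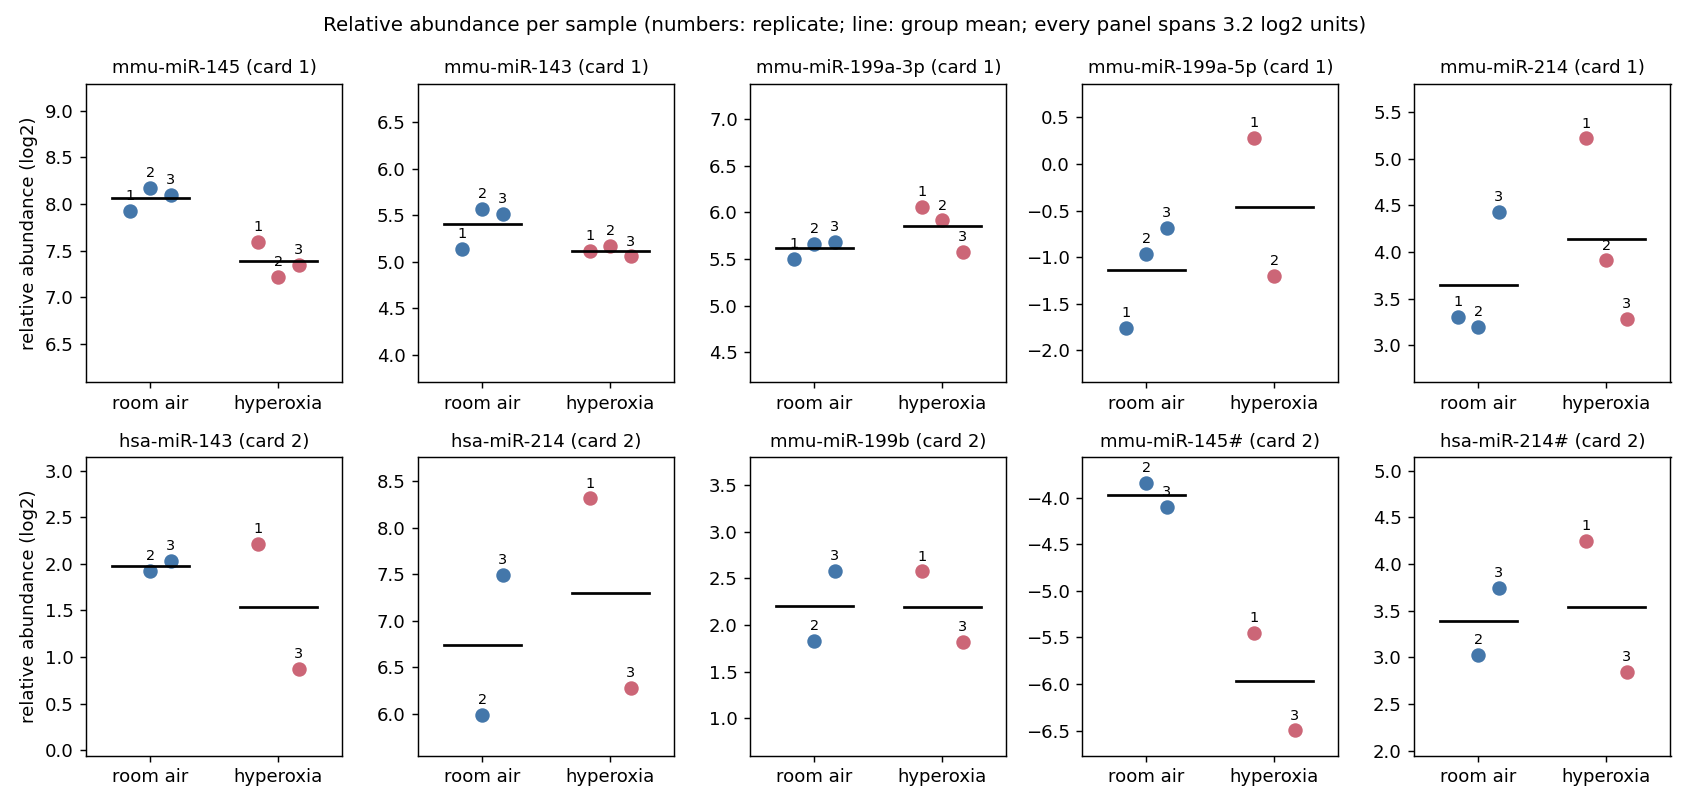
Relative abundance (log2, y axis) of the 8 member assays and the 2 minor strand assays in each sample, by group (x axis), with replicate numbers at the points and a line at the group mean. miR-145 is the first-card assay whose groups do not overlap (7.92 to 8.17 in room air, 7.21 to 7.59 in hyperoxia), and miR-214 spreads widely within both groups.

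miR-199a-3p, the product shared by all 3 miR-199 genes, had room air Ct values of 16.53, 16.82 and 16.91, and hyperoxia values of 17.40, 16.70 and 17.74. Relative abundance was 5.50, 5.66 and 5.69 with room air, compared with 6.06, 5.91 and 5.57 with hyperoxia. Hyperoxia replicates 1 and 2 were above all room air samples and replicate 3 was not. The log2 fold change was 0.24 ± 0.24 (SE, n = 3 and 3; 95% interval -0.37 to 0.84; limma adjusted p = 0.781). It was 0.12 without hyperoxia replicate 1, and it turned to -0.33 with the small RNA controls as reference and to -0.53 without normalization.

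miR-199a-5p, the opposite arm of the same hairpins, had a Ct of 23.78, 23.45 and 23.29 in room air and of 23.19 and 23.82 in hyperoxia replicates 1 and 2. In hyperoxia replicate 3 the well stood at 40, the value that marks no amplification, although miR-199a-3p was read at 17.74 in the same sample. Whether that well failed was not tested. Over the samples that amplified, the mean Ct of the room air group, 23.5 ± 0.25 (SD, n = 3), equalled that of the hyperoxia group, 23.5 ± 0.45 (SD, n = 2), to this precision. With the well at 40 left missing, the log2 fold change was 0.68 ± 0.61 (SE, n = 3 and 2; 95% interval -0.94 to 2.29; limma adjusted p = 0.754). The authors' deposited table gives this assay a fold of 0.0300, because there the 40 enters the hyperoxia mean as a Ct.

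miR-214, the downstream hairpin of the chromosome 1 cluster, had room air Ct values of 18.72, 19.29 and 18.17, and hyperoxia values of 18.25, 18.70 and 20.03. In relative abundance the room air samples stood at 3.30, 3.19 and 4.43, the hyperoxia samples at 5.22, 3.91 and 3.28. The groups overlapped, with hyperoxia replicate 1 and room air replicate 3 high and the other 4 samples between 3.19 and 3.91. The log2 fold change was 0.49 ± 0.62 (SE, n = 3 and 3; 95% interval -1.05 to 2.04; limma adjusted p = 0.829). It was -0.055 without hyperoxia replicate 1 and 0.89 without hyperoxia replicate 3, 0.88 without room air replicate 3 and 0.27 without room air replicate 2, so single samples set its value and sign.

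The members differed in how much they varied among samples of a group. The pooled SD of relative abundance within groups was 0.16 for miR-145, 0.17 for miR-143 and 0.19 for miR-199a-3p, against a median of 0.42 over the 282 first-card miRNAs detected in all 6 samples. Only 19, 21 and 31 of the 282 had a smaller SD than these members. miR-214 stood at 0.85, with 225 of the 282 below it. The differences between groups, 0.68, 0.29 and 0.24 in size, were larger than this SD for the first 3 miRNAs, and that of miR-214, 0.49, was smaller. How many of the 282 also had a difference larger than their SD was not counted, so this does not set the members apart. The limma interval of the log2 fold change ran from -0.88 to 0.30 for miR-143 and from -0.37 to 0.84 for miR-199a-3p. Neither sign is thus settled, while the interval of miR-145 ran from -1.26 to -0.096.

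Under its name, the spread of miR-214 recurred in a separate well, the identity of which is uncertain. hsa-miR-214 on the second card was at 5.99 and 7.49 in room air replicates 2 and 3 and at 8.31 and 6.28 in hyperoxia replicates 1 and 3. The first-card assay put the same 4 samples in the same order, at 3.19, 4.43, 5.22 and 3.28. The second-card value exceeded the first-card value by 2.80 to 3.09, and after centring the readings differed by 0.11 (root mean square over 4 samples). The range among samples was 2.02 for the first card and 2.32 for the second. By the assay number, the well of miR-214 had a range of 1.35, and its centred difference from the first card was 0.63. The minor strand hsa-miR-214# was at 3.03, 3.75, 4.24 and 2.85 in the same samples, so under its name it too was highest in hyperoxia replicate 1 and next in room air replicate 3. Read by the assay number, the well of miR-214# had room air Ct values of 25.42 and 22.42 and hyperoxia values of 23.58 and 23.99, which puts room air replicate 3 highest. The log2 fold changes were 0.56 ± 0.99 (SE, n = 2 and 2; limma adjusted p = 0.877) for hsa-miR-214 and 0.16 ± 0.66 (SE, n = 2 and 2; limma adjusted p = 0.948) for hsa-miR-214#.

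**Figure D2:**
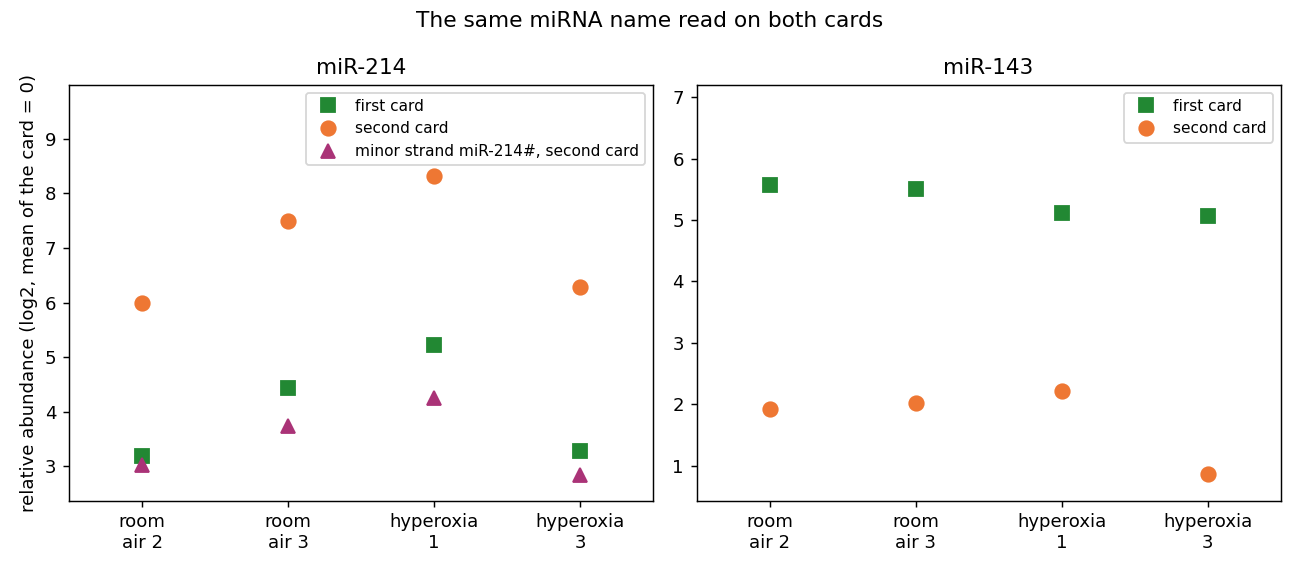
Relative abundance (log2, y axis; 0 is the mean of the card) of miR-214 and miR-143 in the 4 samples with their own second-card values (x axis), read on the first card (squares) and the second card (circles), with the minor strand miR-214# (triangles). With second-card wells taken by name, both miR-214 readings put the samples in the same order with a gap of 2.80 to 3.09. The gap of the miR-143 readings runs from 2.91 to 4.19 with the first card higher.

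hsa-miR-143 on the second card did not follow the first-card assay as closely. It was at 1.92 and 2.03 in room air replicates 2 and 3 and at 2.21 and 0.87 in hyperoxia replicates 1 and 3, which lies 2.91 to 4.19 below the first-card reading. The centred readings differed by 0.46 (root mean square over 4 samples), beside a range of 0.51 on the first card. The groups overlapped and the log2 fold change was -0.43 ± 0.59 (SE, n = 2 and 2; limma adjusted p = 0.855). Read by the assay number instead of the name, a choice made after the data were seen, the well of miR-143 gave -0.57 ± 0.35 (SE, n = 2 and 2; limma adjusted p = 0.689) and that of miR-214 gave -0.43, with centred differences from the first card of 0.18 for miR-143 and 0.63 for miR-214. The name fitted the first card better for miR-214 and the number for miR-143, so these wells do not settle which labelling holds.

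miR-199b, whose name on the card carries no arm, had a Ct of 23.27 and 22.40 in room air replicates 2 and 3 and of 22.63 and 23.43 in hyperoxia replicates 1 and 3. Relative abundance was 1.83 and 2.58 with room air, compared with 2.58 and 1.82 with hyperoxia. The groups covered the same range, and the log2 fold change was -0.0093 ± 0.50 (SE, n = 2 and 2; 95% interval -1.47 to 1.45; limma adjusted p = 0.994). The interval leaves room for a change of more than 2-fold in either direction. Read by the assay number, the well of miR-199b gave -0.35 ± 0.36 (limma adjusted p = 0.787; SE, n = 2 and 2).

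The minor strand of the miR-145 hairpin, miR-145#, lay on the same side as miR-145. Its Ct was 28.94 and 29.08 in room air replicates 2 and 3 and 30.65 and 31.75 in hyperoxia replicates 1 and 3. Both hyperoxia samples were below both room air samples in relative abundance, which 42 of the 249 second-card assays tested also showed (16.9%). The log2 fold change was -2.0 ± 0.51 (SE, n = 2 and 2; 95% interval -3.48 to -0.52; limma adjusted p = 0.446). With the shared values retained it was -1.33. Read by the assay number, the well of miR-145# was not detected in any sample used.

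**Figure D3:**
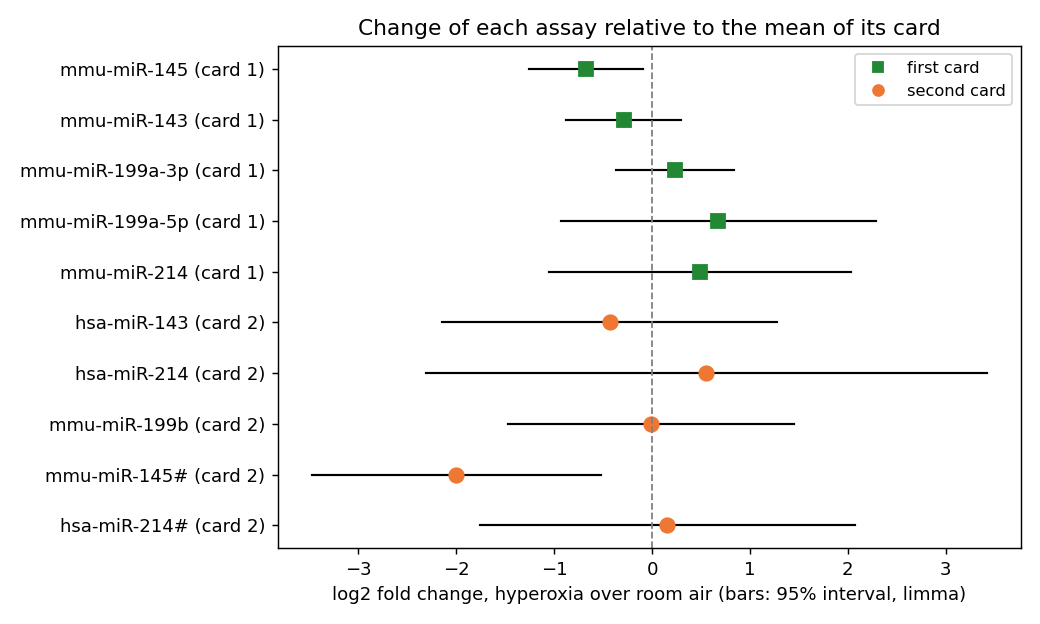
Log2 fold change of hyperoxia over room air (x axis, limma, with the 95% interval as a bar) for each assay (y axis) of the first card (squares, 3 samples per group, 2 in hyperoxia for miR-199a-5p) and the second card (circles, 2 per group). The intervals of miR-145 (-1.26 to -0.096) and miR-145# (-3.48 to -0.52) lie below 0 and the others span it.

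Differences between members within a sample need no reference, because any shift of the whole card cancels. Of the 7 differences examined, 3 separated the groups completely. All 3 involve miR-143 or miR-145, as do most of the 7. They are the differences among miR-145, miR-143 and miR-199a-3p, so they are not 3 separate results. The difference of miR-145 and miR-199a-3p is the sum of the others. Among all 39621 pairs of first-card miRNAs detected in all samples, 7257 (18.3%) separated the groups completely. miR-145 crossed the threshold before miR-199a-3p by 2.42, 2.51 and 2.41 cycles in room air and by 1.53, 1.30 and 1.77 in hyperoxia. This lead was 0.91 cycles smaller in hyperoxia, or 1.88-fold in the ratio, with an SD of 0.055 cycles in room air and 0.24 in hyperoxia (exact permutation p = 0.1, two-sided, the smallest that 3 against 3 allows; 0.233 after Benjamini-Hochberg adjustment over the 7). miR-145 with miR-199a-3p and miR-143 with miR-214 were added after the data were seen, to complete the set.

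miR-143 crossed after miR-199a-3p by 0.36, 0.094 and 0.17 cycles in room air and by 0.94, 0.74 and 0.52 in hyperoxia, a shift of 0.52 cycles (1.44-fold; exact permutation p = 0.1, adjusted 0.233). The partners of the shared transcript separated the groups too, since miR-145 was ahead of miR-143 by 2.79, 2.60 and 2.58 cycles in room air and by 2.47, 2.04 and 2.29 in hyperoxia. That lead was 0.39 cycles smaller (1.31-fold; exact permutation p = 0.1, adjusted 0.233) and 0.28 cycles smaller without hyperoxia replicate 2. Against miR-214 the groups overlapped. The shifts were 1.17 cycles for miR-145 (exact permutation p = 0.2, adjusted 0.35) and 0.78 for miR-143 (exact permutation p = 0.4, adjusted 0.56), and without hyperoxia replicate 1 they were 0.735 and 0.24. The shift of miR-143 was 0.48 without room air replicate 2 and 1.18 without hyperoxia replicate 3.

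Within the miR-199a and miR-214 cluster the groups overlapped as well. miR-214 came after miR-199a-3p by 2.20, 2.47 and 1.26 cycles in room air and by 0.85, 2.00 and 2.29 in hyperoxia, and the means differed by -0.26 cycles (exact permutation p = 0.6, adjusted 0.7). Single samples set this value, which was 0.18 without hyperoxia replicate 1, -0.012 without room air replicate 2 and -0.62 without room air replicate 3, and in the fits without the other samples ran from -0.55 to -0.15. The 5p arm of miR-199a came after the 3p arm by 6.75 ± 0.45 cycles (SD, n = 3) with room air, compared with 6.45 ± 0.94 (SD, n = 2) with hyperoxia (exact permutation p = 0.7, adjusted 0.7).

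**Figure D4:**
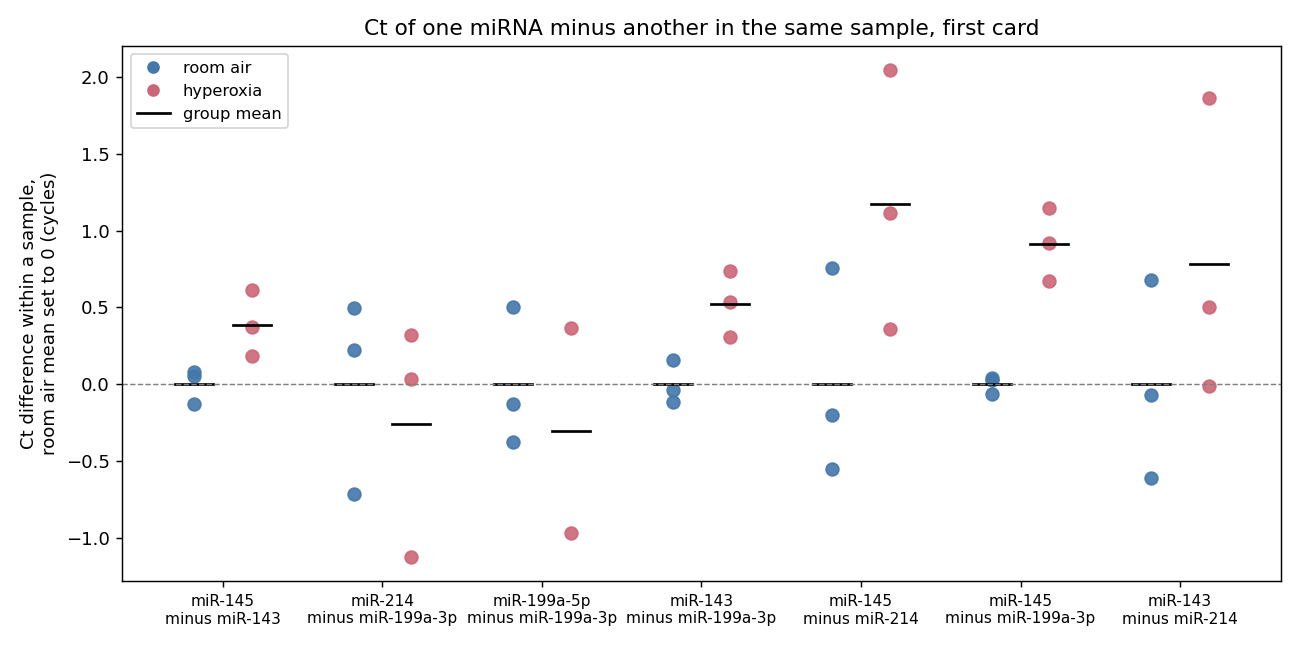
Ct of a first-card member minus the Ct of another in the same sample (y axis, cycles, shifted so that the room air mean is 0) for 7 combinations (x axis), with points for samples and lines for group means. Hyperoxia lies above room air without overlap for miR-145 minus miR-143, miR-143 minus miR-199a-3p and miR-145 minus miR-199a-3p, where the shift is 0.91 cycles.

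miR-145 and miR-143 were negative in all 22 alternative analyses. Those that changed only second-card values, only the set of assays tested or only the block by replicate number returned the main values exactly. They could not have turned the sign. From the lowest log2 fold change to the highest, the order was miR-145, miR-143, miR-199a-3p and miR-214. Of the alternatives, 15 shift these members by the same amount and cannot alter that order. Of the 7 that can, quantile normalization and the 6 fits without a sample, 6 kept it, the exception being the fit without hyperoxia replicate 1. The median of the first-card assays was -0.13 relative to the mean of the card, -0.69 with the small RNA controls as reference and -0.90 without normalization. Relative to that median, miR-145 stood at -0.54 (-0.64 to -0.25 over the alternatives), miR-143 at -0.15 (-0.26 to -0.086), miR-199a-3p at 0.37 (0.28 to 0.52) and miR-214 at 0.63 (0.10 to 1.07).

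**Figure D5:**
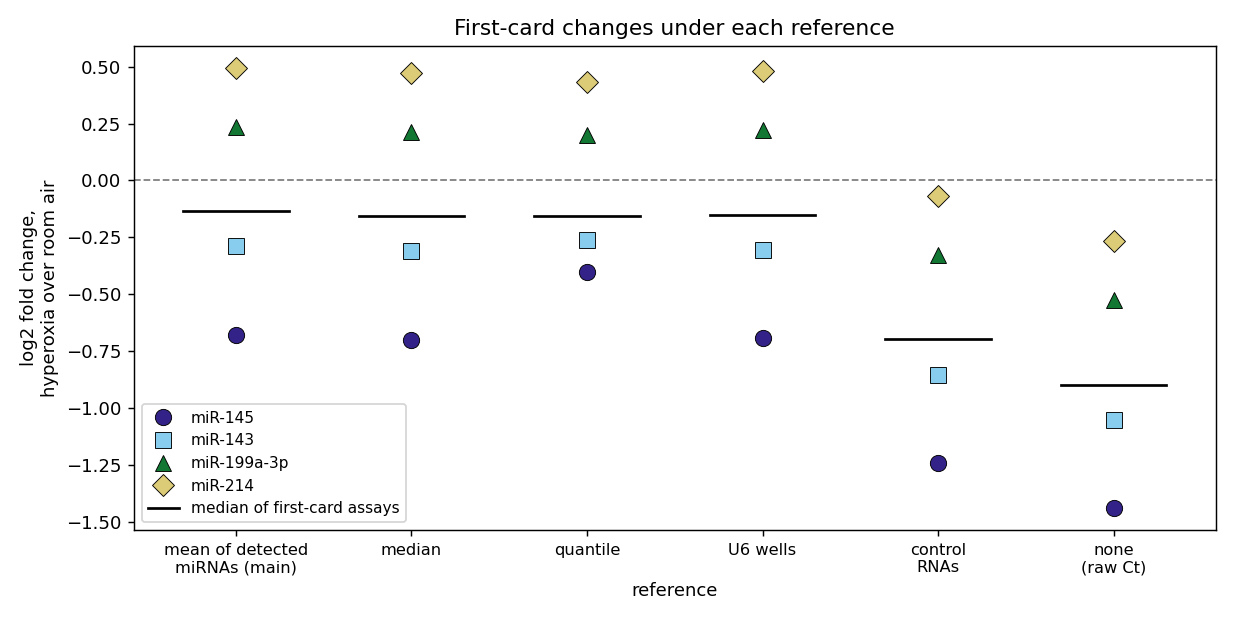
Log2 fold change of hyperoxia over room air (y axis) of the 4 first-card members read in all samples, under 6 references (x axis), with a black line at the median of all first-card assays. All references but quantile normalization move the points by the same amount, from 0.24 to -0.53 for miR-199a-3p, so their order under those is fixed. Under quantile normalization miR-145 (-0.40) is nearer to the line.

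The authors' deposited table takes U6 in plate row A of the first card as its reference. For the first card it gives a fold of 0.499 for miR-145, 0.653 for miR-143, 0.939 for miR-199a-3p and 1.12 for miR-214. For the second card the authors' deposited table gives 1.02 for hsa-miR-143, 1.60 for hsa-miR-214, 1.23 for miR-199b, 0.492 for miR-145# and 1.33 for hsa-miR-214#. Those second-card folds include the values that room air replicate 1 and hyperoxia replicate 2 share.

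The order of the mean Ct of the first-card members was the same in both groups. miR-145 came first, at 14.3 ± 0.20 for room air and 15.7 ± 0.30 for hyperoxia (SD, n = 3 each), and ranked 6th of 335 first-card miRNAs in room air. miR-199a-3p (16.8 ± 0.20 and 17.3 ± 0.53) and miR-143 (16.96 ± 0.11 and 18.01 ± 0.50) were neighbours whose room air means differed by 0.21 cycles, about their spread. miR-214 followed at 18.7 ± 0.56 and 18.99 ± 0.92, in hyperoxia about its own SD away from miR-143, and miR-199a-5p came last. Assays differ in efficiency, so an order of Ct is not an order of copies.

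The first-card miRNAs whose pattern over the 6 samples was most like that of a member were found by the root mean square difference of relative abundance, each miRNA centred on its own mean, among 281 candidates. For miR-145 these were miR-10b (0.15), miR-497 (0.16) and miR-434-3p (0.17), and miR-143 was at rank 17 (0.24). For miR-143 they were miR-434-5p (0.085), miR-106b (0.12) and miR-434-3p (0.13), and miR-145 was at rank 40. miR-199a-3p was nearest to miR-125b-5p (0.070), miR-28 (0.085) and miR-350 (0.14). From miR-199a-3p, miR-214 was at rank 164 (0.59), beyond the median distance of 0.51. miR-214 was nearest to let-7a (0.24), let-7c (0.27) and let-7e (0.30), with its cluster partner miR-199a-3p at rank 30 (0.59). Neither cluster partner was thus among the nearest 3.

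Among the control RNAs, snoRNA135 was close to miR-214 as well (0.37, with 5 miRNAs nearer). U87 (0.50, with 16 nearer) and snoRNA202 (0.51, with 18 nearer) followed. Y1 (0.61) and U6 (0.70 in plate row A, 0.82 in row B) were further away. Relative to the miRNAs, the room air samples of snoRNA135 stood at 2.76, 2.89 and 3.73 and its hyperoxia samples at 4.48, 4.24 and 3.19. This control was highest in hyperoxia replicate 1, as miR-214 was, but next highest in hyperoxia replicate 2. Whether these patterns are related was not tested.

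Further miRNAs studied in smooth muscle and mesenchyme were read by 23 assays, of which 11 were negative and 12 positive, with a median log2 fold change of 0.0013. By limma 0 passed after adjustment and 5 had an unadjusted p under 0.05, all higher in hyperoxia (miR-21, miR-221, miR-29a, miR-29b and miR-29c), where 3.63% of all assays were higher at that p. The values ran from -1.60 ± 0.84 for miR-26a (SE, n = 3 and 3; limma adjusted p = 0.667) to 1.61 ± 0.33 for miR-21, the miRNA of injured and fibrotic tissue (SE, n = 3 and 3; limma adjusted p = 0.314). These 5, of which miR-29a, miR-29b and miR-29c belong to the same family, lay on the opposite side of 0 from miR-145. The list was chosen with earlier results of these data known, so its count is no test against the share of all assays.

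Markers of other cell types were set beside the value of miR-145 as mean relative abundance over the first-card assays of each list detected in all samples. The 2 endothelial assays were at 8.60 to 9.30 in room air and 8.45 to 8.78 in hyperoxia, with miR-126-3p at -0.61 ± 0.37 and miR-126-5p at -0.14 ± 0.25 (SE, n = 3 and 3). The 11 epithelial assays were at 2.04 to 2.29 and 1.62 to 2.32, with single changes from -0.49 (miR-375) to 0.31 (miR-183). The 6 leukocyte assays were at 2.25 to 2.64 and 2.26 to 3.10, with changes from -1.09 (miR-150) to 0.94 (miR-223). The 7 striated muscle assays were at -3.84 to -1.02 and -4.11 to -1.70. Of the 8 assays of the list 7 were negative, as miR-145 was, beside 319 of all 551. Their median log2 fold change was -0.42 against -0.12 over all assays. The list shares mmu-miR-1, rno-miR-1, miR-133a and miR-133b with the smooth muscle and mesenchymal list above, so it is not specific to striated muscle. miR-499, at -0.73 ± 6.94 (SE, n = 3 and 3), has no settled sign. The values of the list ran from -1.06 (miR-208b) to 1.31 (hsa-miR-206), the 1 positive value and from a second-card well of uncertain identity. The 2 erythroid assays were at -0.083 to 2.32 and 0.37 to 3.11, with changes from -1.29 (hsa-miR-144, second card) to 0.71 (miR-451). The groups overlapped for all 5 lists, 0 of their assays passed by limma after adjustment (3 of 33, or 9.09%, had an unadjusted p under 0.05, beside 9.07% of all assays: miR-150, hsa-miR-144 and miR-208b, all lower), and no marker list was undetected. Their part in the difference of miR-145 was not tested.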

How the data were processed

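The authors deposited 1 table with a raw Ct per well, a score in cycles, for 6 samples and 768 wells, and, per the file headers, a fold of hyperoxia over room air (a ratio), which counts a Ct of 40 as measured (checked for 764 of 764 assays within 0.01 cycles). Per the labels' protocols, Megaplex primer pools served for reverse transcription and 12 cycles of pre-amplification; not given in the sources used here are instrument, software and threshold. Ct values of 35 or more were set missing. Relative abundance (log2) was taken against the mean of 282 first-card or 249 second-card miRNAs. Assays detected in at least 2 samples per group were compared by limma 3.58.1 in R 4.3.3, two-sided, with Benjamini-Hochberg adjustment over 551 assays. Single values were compared by exact permutation tests. The functions were tested on simulated data. Every member well, the minor strands, the 3 nearest first-card miRNAs and the extremes of each list are named. The members and lists were chosen with earlier results of these data known. The number of samples limits the precision.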

Additional observations from a re-analysis of the deposited data

How the results depend on the processing

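No member passed the adjusted threshold in any alternative that gave it a value. Over 22 of them miR-145 ran from -1.44 to -0.40 and miR-143 from -1.05 to -0.18. The lowest and highest values without 1 sample were -0.79 and -0.58 for miR-145, -0.42 and -0.21 for miR-143, 0.12 and 0.34 for miR-199a-3p, 0.37 and 0.88 for miR-199a-5p, and -0.055 and 0.89 for miR-214. Signs turned as follows. With the small RNA controls as reference, miR-199a-3p was at -0.33, miR-199a-5p at -0.078, miR-214 at -0.070 and hsa-miR-214# at -0.27. Without normalization, miR-199a-3p was at -0.53, miR-214 at -0.27 and hsa-miR-214# at -0.028. With a Ct of 40 counted and U6 of row A as reference, miR-199a-3p was at -0.092, miR-199a-5p at -5.06, hsa-miR-143 at 0.021 and miR-199b at 0.30. With both cards referred to the first, hsa-miR-143 was at 0.23 and miR-199b at 0.65. With quantile normalization, hsa-miR-214 was at -0.094 and hsa-miR-214# at -0.047, and with U6 as reference hsa-miR-214# at -0.13. miR-199b was at 0.37 with the median as reference, 0.0069 with a Ct ceiling of 32, 0.045 without plate row G and 0.13 with the shared values kept in room air. Of the 5 first-card members 2 were below 0, against 5 with the control RNAs and 4 without normalization or with a Ct of 40 counted. Over all assays 0 were called, against 1, no member, with quantile normalization, a Ct ceiling of 32 or 28, the first card alone or without plate row G, and 0 to 1 without 1 sample. The difference between the arms of miR-199a ran from -0.97 to 0.37 cycles without 1 sample. The causes were not tested. Leaving out room air replicate 2 or 3 or hyperoxia replicate 1 or 3 left second-card members too few samples to test, as did leaving out hyperoxia replicate 1 or 2 for miR-199a-5p, which quantile normalization and the filter for detection in every sample also dropped. A Ct ceiling of 28 left miR-145# undetected.

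Same-numbered samples did not deviate together (correlations over 282 miRNAs of -0.34, -0.23 and -0.18), and no room air sample correlated best with its own number. With the replicate number as a block, first card only because the second has no residual degrees of freedom, 0 assays passed and miR-145 was at -0.68 (limma adjusted p = 0.591).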
